A study of Mus musculus with 8 samples.

Results

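The REG family comprises 7 small secreted lectin genes of the mouse, Reg1, Reg2, Reg3a, Reg3b, Reg3d, Reg3g and Reg4, and all 7 were found by gene name among the 54532 genes counted in stomach corpus RNA. The corpus is the acid- and pepsinogen-secreting region of the stomach. RNA came from 4 control and 4 mutant mice of a mixed C57BL/6 and CD1 background, which the series' design text calls biological replicates, and no treatment was given. Mice of both groups carried 1 copy of Six2-Cre. Controls were PKAcaR wt/wt and mutants PKAcaR fl/wt, so a mutant had 1 floxed copy of an allele of Prkaca, the catalytic alpha subunit of PKA (cyclic AMP-dependent protein kinase). Recombined by Cre, that allele is known to yield a kinase that needs no cyclic AMP. Six2 is a patterning gene of stomach mesenchyme, the cells recombined were not measured, and the sources used here give neither age nor sex. The family was chosen by its raised reads in the mutants, that is, selected on the same values that are described here. Its own differences between the groups are therefore given as a description, with no p-value.

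REG proteins consist of a secretion signal and a C-type lectin domain. In the intestine Reg3g and Reg3b are made by epithelial cells and act on bacteria at the mucosal surface, Reg3g chiefly on Gram-positive species. They are known to be induced by interleukin-22 through the receptor chain Il22ra1 and the transcription factor Stat3, and by microbial signals through Myd88. Reg1 and Reg2 are abundant in exocrine pancreas, and Reg1 is also known in gastric endocrine cells, where it responds to gastrin. Reg4 marks secretory cells of the intestine.

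Library totals lay between 18184281 and 23814720 reads. The targeted gene Prkaca was at 77.1 to 86.0 CPM in controls (counts put on a common scale by TMM factors) and 36.8 to 40.7 in mutants, and reads of the altered and the unaltered copy cannot be separated. Corpus markers were present in every library, but the summed level of 11 genes listed for parietal cells was 20351 to 25792 CPM in controls and 496 to 5474 in mutants. That of 8 chief cell genes was 349279 to 617798 against 896 to 44598. Most of the parietal list's sum in mutants was Gif and Car2. Atp4a, a subunit of the acid pump, was at 9783 to 13086 CPM in controls and 4.42 to 1446 in mutants. In bulk RNA, fewer cells of a type and less RNA per cell cannot be told apart. Mutant 2 stood apart. Its log2 CPM correlated across 15862 genes at 0.829 to 0.875 with the other mutants, against 0.972 to 0.976 among those 3. Control 3 and mutant 3 held squamous transcripts, with 484 and 3776 reads of the basal keratin Krt5 against at most 1 elsewhere.

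Of the 7 genes, 6 form a cluster of 98.2 kb on chromosome 6 (78370657 to 78468872 in GRCm38), in the order Reg3b, Reg3d, Reg3a, Reg2, Reg1 and Reg3g. Reg4 lies on chromosome 3 (98222156 to 98236748). Reg3d and Reg3g are read from the minus strand and the other 5 from the plus strand. Within 250 kb on either side of the cluster the count table holds 3 further genes, all processed pseudogenes, and none had a read in any library. The promoter windows of the 3 genes with many reads in the mutants, and of their low neighbour Reg3a, are printed for comparison (RefSeq, GRCm38.p6, from 250 bases before to 50 bases after the annotated start, 5′ to 3′). For Reg3b, Reg1 and Reg2 this start lies 228, 3272 and 9532 bases inside the gene's row in the count table, and for the other members within 2 bases of the row's 5′ end. Capitals mark TATAAA on the strand of the gene and, in Reg3b, the match to the STAT motif TTCNNNGAA.
Reg3b, chr6:78370635-78370934, + strand: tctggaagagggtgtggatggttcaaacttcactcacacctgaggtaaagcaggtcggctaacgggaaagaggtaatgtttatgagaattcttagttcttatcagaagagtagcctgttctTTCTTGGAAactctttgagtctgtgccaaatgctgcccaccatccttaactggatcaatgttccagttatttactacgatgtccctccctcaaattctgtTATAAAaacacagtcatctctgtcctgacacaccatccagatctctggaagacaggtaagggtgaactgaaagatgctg
Reg3g, chr6:78468825-78469124, - strand: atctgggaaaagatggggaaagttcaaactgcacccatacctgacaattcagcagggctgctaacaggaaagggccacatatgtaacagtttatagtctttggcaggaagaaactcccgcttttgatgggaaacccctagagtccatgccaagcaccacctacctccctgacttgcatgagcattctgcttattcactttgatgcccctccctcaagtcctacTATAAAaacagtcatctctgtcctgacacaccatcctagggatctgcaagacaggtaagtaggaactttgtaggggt
Reg1, chr6:78425733-78426032, + strand: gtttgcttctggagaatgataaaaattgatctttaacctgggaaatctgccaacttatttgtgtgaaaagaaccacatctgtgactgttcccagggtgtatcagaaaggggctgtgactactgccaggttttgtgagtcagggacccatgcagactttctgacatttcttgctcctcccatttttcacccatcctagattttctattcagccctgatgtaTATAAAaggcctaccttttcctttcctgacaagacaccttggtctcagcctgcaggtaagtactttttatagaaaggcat
Reg3a, chr6:78380459-78380758, + strand: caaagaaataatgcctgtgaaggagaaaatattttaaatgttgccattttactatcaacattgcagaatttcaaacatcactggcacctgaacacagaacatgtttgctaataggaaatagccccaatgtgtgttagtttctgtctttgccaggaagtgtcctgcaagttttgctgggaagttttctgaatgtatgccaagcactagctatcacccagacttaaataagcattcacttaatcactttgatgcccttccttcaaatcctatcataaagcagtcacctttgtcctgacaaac

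All 7 members matched a promoter window. The letters TATAAA on the gene's own strand began 29 bases before the start in Reg3b, 27 in Reg3g, and 30 in Reg1 and Reg2. Reg3a, Reg3d and Reg4 had none on either strand. Over all 32851 windows of 300 bases, 13.6% held TATAAA on either strand. TTCNNNGAA, which reads the same on both strands, occurred once in Reg3b, 129 bases before the start, once in Reg3d, and in 8.3% of all windows. The cyclic AMP response element TGACGTCA and its part TGACG were in no member's window on either strand, against 1.79% and 20.8% of all windows. No match says only that these letters are not in this window. Reg3b and Reg3g share an identical run of 29 bases, which starts 20 bases before the start in each and was in none of the other windows. It is shown because these genes had the largest differences between the groups.
Run shared by Reg3b and Reg3g: acagtcatctctgtcctgacacaccatcc

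**Figure D1:**
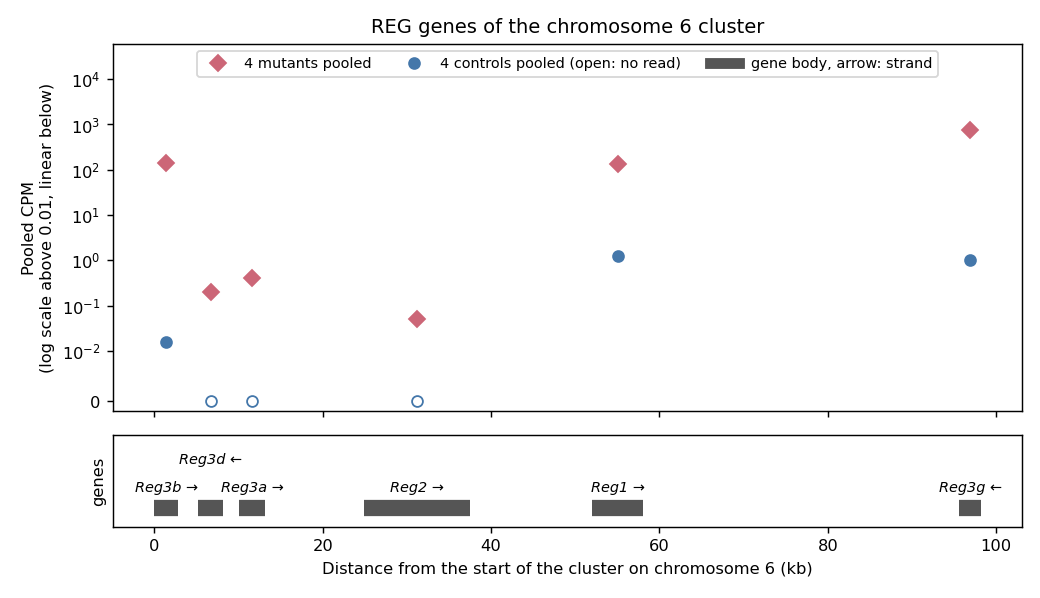
Pooled CPM of the 6 clustered REG genes in the 4 mutants and the 4 controls (log axis above 0.01, linear below) against the distance in kb from the start of the cluster on chromosome 6, with gene bodies and strands beneath. Reg3b, Reg1 and Reg3g stood at 141, 137 and 773 CPM in the mutants, and Reg3d, Reg3a and Reg2 between them at 0.198, 0.406 and 0.0495.

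Reg3b, which in intestine acts against Gram-negative bacteria (ENSMUSG00000071356, chromosome 6, 78370657 to 78373466), had 0, 1, 0 and 0 reads in controls 1 to 4. Mutants 1 to 4 held 1668, 8281, 1213 and 3073 reads, or 55.7, 339, 52.3 and 132 CPM. Every mutant thus lay far above every control, and mutant 2 was highest. The mean of the mutants was 145 ± 134 CPM (SD, n = 4), and that of the controls 0.0165 ± 0.0329. From summed reads the ratio of mutants to controls was 8955, with an exact 95% interval of 1607 to 353720 that covers counting error only and is wide because it rests on 1 control read. Without mutant 2 the ratio was 4943 (887 to 195285). Without control 2, which held that read, Reg3b in the mutants was 2271-fold over a floor of 3 reads in the 3 controls.

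Reg3g (ENSMUSG00000030017, chromosome 6, 78466269 to 78468872) had 4, 52, 5 and 3 reads in controls 1 to 4, or 0.251, 3.43, 0.319 and 0.179 CPM. Mutants 1 to 4 held 5138, 64121, 1411 and 7329 reads, or 172, 2622, 60.8 and 314 CPM. The groups did not overlap, and the lowest mutant was 17.8 times the highest control. Mutant 2 carried most of the mean and of its spread. Its value was 8.35 times that of the next mutant, and the mutant mean was 792 ± 1224 CPM with it and 182 ± 127 without it (SD, n = 4 and 3). Fitted over all 8 libraries, mutants exceeded controls by 9.58 on the log2 scale (standard error, SE, 1.78), by 7.48 without mutant 2 and by 11.61 without control 2. In mutant 2 Reg3g alone took 0.343% of all counted reads and stood at rank 17 of 23898 genes with reads by deposited FPKM (fragments per kilobase of gene, scaled to library size). In the other mutants its rank was 423, 1415 and 209, and in controls 10712 or lower.

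Reg1 (ENSMUSG00000059654, chromosome 6, 78422711 to 78428667), a growth-associated member of the family, held the most control reads of any member. Controls 1 to 4 held 20, 30, 9 and 19 reads, or 1.26, 1.98, 0.574 and 1.14 CPM. Mutants 1 to 4 held 2548, 7499, 1297 and 2451 reads, or 85.1, 307, 55.9 and 105 CPM. Again no mutant reached down to a control, the lowest mutant being 28.3 times the highest control. Means were 1.24 ± 0.576 for controls and 138 ± 114 CPM for mutants (SD, n = 4 each), with a log2 fold change of 6.80 (SE 0.70), and 6.05 without mutant 2.

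Reg3a, Reg3d and Reg2 stayed near the limit of detection in the mutants and had no read in any control. For Reg3a, mutants 1 to 4 held 4, 34, 1 and 2 reads, for Reg3d 1, 15, 1 and 3, and for Reg2 0, 3, 0 and 2. Mutant 2 held the most reads of each. With 3 reads over the 4 controls as floor, Reg3a was at least 8.60-fold and Reg3d at least 4.19-fold higher in the mutants, and 1.94-fold and 1.38-fold without mutant 2. For Reg2 the bound was 1.05-fold. Without mutant 2 its 2 reads were under the floor. Reg4 had no read in any of the 8 libraries, and 3 reads over the 4 mutants would be 0.0297 CPM. At this depth Reg4 was not detectable.

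Only Reg1, Reg3b and Reg3g passed the filter on low counts, and they passed through the mutant libraries, in which they were high. All 3 were called higher in the fit over all genes, by a threshold of 0.05 on edgeR's p adjusted after Benjamini and Hochberg. Of the 15862 tested genes 9.39% were called higher and 20.2% in either direction. Since the family was chosen with this contrast known, nothing is read from that count. By the size of the fitted log2 fold change they held ranks 3 (Reg3b), 13 (Reg3g) and 45 (Reg1) of the 15862. In all 3, and in Reg3a and Reg3d, every mutant lay above every control, as did 14.2% of tested genes. For Reg3d and Reg3a that rests on 1 read in the lowest mutant.

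**Figure D2:**
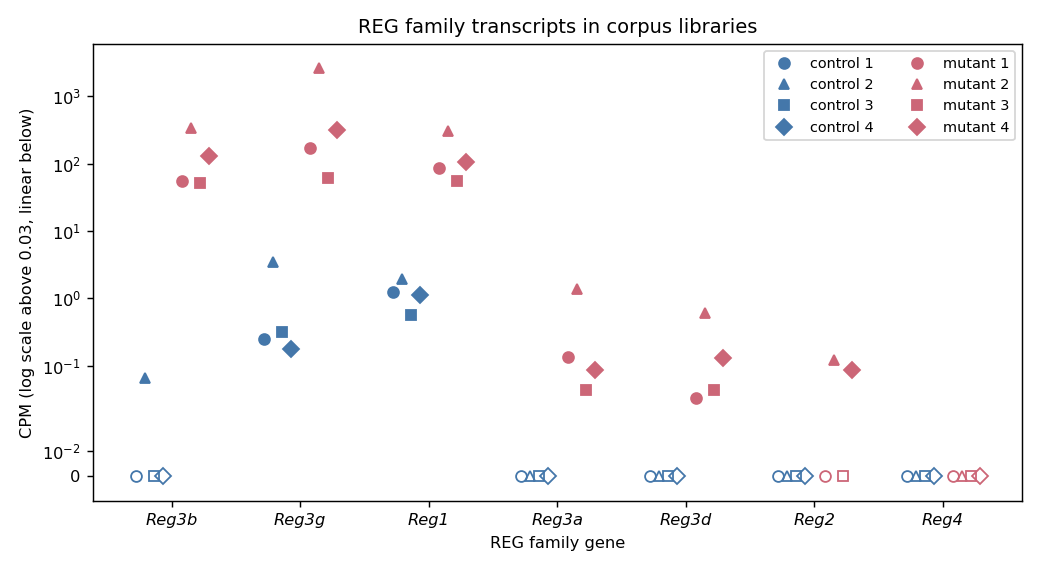
CPM of each REG gene in each of the 8 libraries (1 symbol per library, open where there was no read, log axis above 0.03 and linear below). Mutant values of Reg3b, Reg3g and Reg1 sit between 52.3 and 2622, all above the highest control value of 3.43, and Reg4 is at 0 throughout.

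How the 3 abundant members compare with one another depends on the gene length used. In deposited FPKM, Reg3g was at 80.7, 1232, 28.7 and 147 in mutants 1 to 4, Reg1 at 93.5, 337, 61.6 and 115, and Reg3b at 48.5, 295, 45.6 and 114. On that scale Reg3g was lowest of the 3 in mutant 3, between the others in mutant 1 and highest in mutants 2 and 4. The deposited length of Reg3g is 2114 bases, while its longest coding transcript in GENCODE M21 has 771 bases. A retained-intron transcript of 2089 bases makes up the difference, and how many reads fell in it cannot be read from gene counts. With the longest coding transcript as length, a choice made after seeing the data, Reg3g was at 221, 3378, 78.6 and 403 FPKM and was highest in all 4 mutants. The length of Reg3b fell from 1142 to 783 bases, giving 70.7, 430, 66.5 and 167 FPKM, and that of Reg1 stayed at 904. In mutant 3 the 3 genes then differed little, with Reg3g at 1.18 times Reg3b and 1.28 times Reg1.

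**Figure D3:**
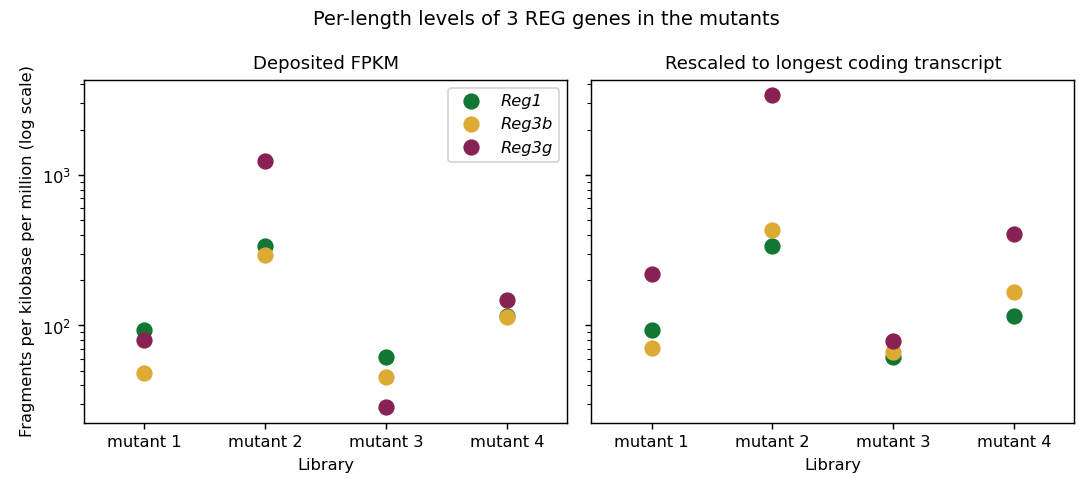
FPKM of Reg1, Reg3b and Reg3g in each mutant library (log axis), as deposited on the left and rescaled to the longest coding transcript on the right. With the rescaled length Reg3g rises 2.74-fold and is the highest of the 3 genes in each of the 4 mutants.

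The members also differed in how far the mutants spread. The highest mutant was 43.1 times the lowest for Reg3g, 6.47 times for Reg3b and 5.48 times for Reg1. Within a library, Reg1 and Reg3b kept a ratio in deposited FPKM between 1.01 and 1.93, whereas Reg3g over Reg3b ran from 0.628 in mutant 3 to 4.18 in mutant 2. The order of the mutants was the same in Reg3b, Reg3g and Reg1, with mutant 2 first, then 4, 1 and 3. Of all tested genes 9.40% had that order. Among controls, control 2 was highest for Reg3g and Reg1 and held the only Reg3b read. Reads of the whole family made up 0.0210% to 0.428% of a mutant library and at most 0.000438% of a control library. In mutant 2 Reg3g made up 80.2% of the family's reads, and in mutant 3 it made up 36.0%, beside 33.1% for Reg1 and 30.9% for Reg3b.

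Related sequence could move reads between members, since no source used here states how reads with several matches were handled. Between the longest coding transcripts the longest identical run was 35 bases, in Reg3b and Reg3g, which were 74.7% identical over aligned bases. The most alike pair was Reg1 and Reg2, at 81.5%, with a longest run of 19 bases. Reg2 had 5 reads in all against 13795 mutant reads of Reg1.

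The cytokine axis known to induce REG genes was compared next, with a list of 24 ligands, receptors and signalling genes, of which 20 could be tested. This list and those below were chosen with earlier results of these data known. Their counts, medians and adjusted p-values are therefore a description and no independent test. In the mutants 8 rose, 2 fell and 10 were not called, with a median log2 fold change of 0.58 against 0.07 over all tested genes. Calls over all tested genes were 9.39% higher and 10.8% lower. Among receptors, Il22ra1, the epithelial chain of the interleukin-22 receptor, was at 1.07, 0.593, 0.702 and 0.658 CPM in controls and 7.65, 2.25, 2.46 and 5.23 in mutants 1 to 4. It rose by 2.53 on the log2 scale (SE 0.48, edgeR adjusted p = 0.00962), every mutant being above every control, and mutant 2, highest for the REG genes, was lowest of the mutants. Osmr, the oncostatin M receptor, rose by 2.68 (SE 0.63, edgeR adjusted p = 0.0217), and by 1.73 without mutant 2, in which it reached 162 CPM. Il6st, the shared signal chain of this receptor family, rose by 0.80 (SE 0.20, edgeR adjusted p = 0.0262). Il11ra1, the interleukin-11 receptor, fell from 142 ± 16.7 to 49.5 ± 12.8 CPM (SD, n = 4 each), by 1.52 on the log2 scale (SE 0.20, edgeR adjusted p = 0.00233).

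Of the signalling genes, Stat3, the transcription factor downstream of these receptors, was at 99.8 to 125 CPM in controls and 170 to 247 in mutants and rose by 0.88 (SE 0.14, edgeR adjusted p = 0.00523). Socs3, a feedback inhibitor induced by Stat3, rose by 2.37 (SE 0.53, edgeR adjusted p = 0.0186). Its level was 13.9 to 27.8 CPM in controls and 60.1, 182, 29.8 and 114 in mutants 1 to 4. Mutants 2, 4, 1 and 3 thus stood in the order seen for the REG genes. Stat3, Osmr, Il6st, Il11 and Lif, which also rose, had the same order, and Il22ra1 and Jak1 did not. Of all tested genes 9.40% had it. Myd88, the adaptor of microbial sensing, was not called (0.48, SE 0.16, edgeR adjusted p = 0.0618). Neither was Extl3, a proposed REG receptor (-0.09, SE 0.20, edgeR adjusted p = 0.778).

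The ligands Il11 and Lif and the kinase Jak1 were the other genes of the list that rose, and the receptor Lifr was the other that fell. Il11 was called narrowly (edgeR adjusted p = 0.0498). It was at 27.3 CPM in mutant 2, while mutant 3 at 0.517 lay within the controls, at 0.447 to 0.816. Il22 had no read in controls and in mutants 1 and 3, and was at 0.123 and 0.129 CPM in mutants 2 and 4, too low to be tested. Il17a, named after its values were seen, had no read in controls and was at 1.14, 13.4, 0.561 and 0.857 CPM in mutants 1 to 4. From summed reads that was 82.8-fold over a floor of 3 control reads, and 18.5-fold without mutant 2. Il17a was not called (edgeR adjusted p = 0.0501).

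The counts for this axis, like those over all genes, were sensitive to single libraries. Genes higher numbered 2, 3, 2 and 2 without control 1, 2, 3 or 4 and 5 without mutant 4. In the same fits the genes called higher over all fell from 1489 to 665, 783, 705, 941 and 843. The call of Osmr and of Il6st was lost without any 1 control (edgeR adjusted p of at most 0.0726 and 0.0838), and that of Socs3 without control 1, 3 or 4 (at most 0.0615). Genes lower numbered 1 without any 1 control, mutant 1 or mutant 4. When libraries were scaled by their totals alone, the median of all genes moved to 0.76, and 16 genes of the axis were higher and 1 lower.

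**Figure D4:**
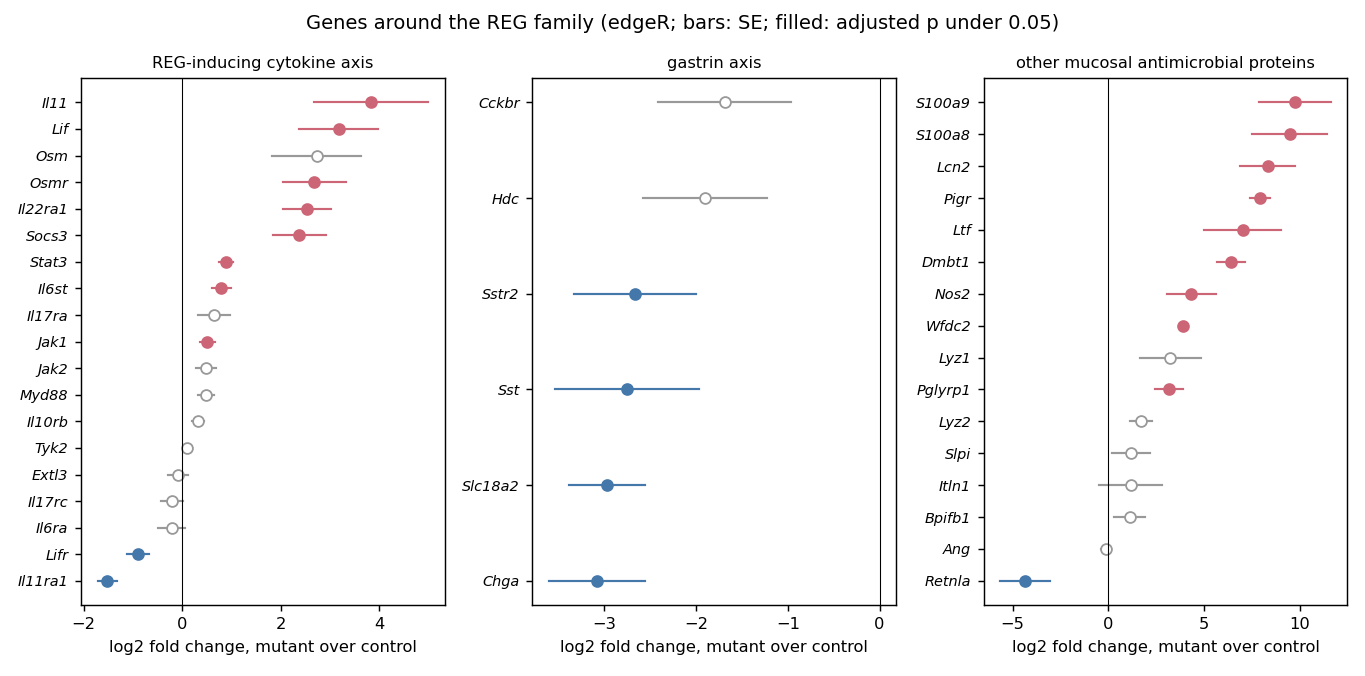
Log2 fold change, mutant over control, of the tested genes of 3 lists around the REG family (points, with SE as bars, filled where edgeR's adjusted p was under 0.05, Il17a left out because no control had a read). Stat3, Il22ra1 and Socs3 lie to the right of 0 and Il11ra1 to the left, while every gene of the gastrin axis lies to the left.

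Genes around the gastrin axis, relevant to Reg1 in gastric endocrine cells, were mostly lower in the mutants. The list mixes receptors with products of endocrine cells, so its counts give no direction of gastrin signalling. Of 7 listed genes 6 could be tested, 4 fell, 2 were not called and none rose, with a median log2 fold change of -2.71. Over all tested genes 10.8% were called lower and 9.39% higher. All 6 differences were below 0, so that 0 genes were higher at an unadjusted p under 0.05 either, as with DESeq2. Chga, a granule protein of endocrine cells, was at 941 to 1294 CPM in controls and 190, 28.5, 168 and 125 in mutants 1 to 4 (log2 fold change -3.08, SE 0.52, edgeR adjusted p = 0.00666). Slc18a2, the transporter that loads histamine into granules, fell by 2.98 (SE 0.41, edgeR adjusted p = 0.00314). Sstr2, a somatostatin receptor, and Sst, somatostatin, fell by 2.66 and 2.75 (SE 0.67 and 0.79, edgeR adjusted p = 0.0269 and 0.0420). Cckbr, the gastrin receptor, was at 6.34 to 11.2 CPM in controls and 0.245 to 5.61 in mutants, without a call (-1.69, SE 0.72, edgeR adjusted p = 0.131). Gast itself had no read in any library, control or mutant, so the supply of gastrin cannot be read from this corpus RNA. Without any 1 control, mutant 1 or mutant 4 only 2 of these genes were lower, Sst and Sstr2 having lost their calls (edgeR adjusted p of at most 0.0995 and 0.0731). Without mutant 2 the count was 6, and without mutant 3 Sstr2 fell by 3.72. Whether gastrin had a part in the REG differences was not tested.

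Other defence genes of mucosa, not all of them for secreted proteins, were compared beside the REG genes. Of 22 listed genes 16 could be tested, 9 rose, 1 fell and 6 were not called, with a median log2 fold change of 3.57. Over all tested genes 9.39% were called higher and 10.8% lower. Pigr, the receptor that carries IgA across epithelium, went from 13.6 ± 5.65 to 3291 ± 1184 CPM (SD, n = 4 each), a log2 fold change of 7.92 (SE 0.54, edgeR adjusted p = 0.000536). Dmbt1, a mucosal scavenger protein, rose by 6.40 (SE 0.72, edgeR adjusted p = 0.00160) and Wfdc2, a protease-inhibitor family protein, by 3.90 (SE 0.19, edgeR adjusted p = 0.000113). In these 3 genes mutant 1 was highest and mutant 2 did not stand out, unlike in Reg3g. Lcn2, which withholds iron from bacteria, was at 0.383 to 0.816 CPM in controls and 45.3, 581, 18.6 and 45.0 in mutants 1 to 4. It rose by 8.32 (SE 1.43, edgeR adjusted p = 0.00678), or by 6.07 without mutant 2. Retnla, a resistin-like protein, fell by 4.35 (SE 1.28, edgeR adjusted p = 0.0466), a call lost when any 1 library except mutant 4 was left out (edgeR adjusted p of at most 0.129). It fell by 3.36 without control 2 and by 5.75 without mutant 4. Genes higher numbered 5 without control 1. Ltf, Nos2 and Pglyrp1 were the other members of the list that rose. Of antimicrobial genes of the intestinal Paneth cell, Ang4 and Pla2g2a had no read in any library. Lyz1, the lysozyme of that cell, named after its values were seen, was at 48.8 CPM in mutant 2 and 0.334 to 1.91 in the other 7 libraries, without a call (3.24, SE 1.58, edgeR adjusted p = 0.176).

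S100a8 and S100a9, subunits of calprotectin and abundant in neutrophils, rose by 9.47 and 9.75 (SE 1.97 and 1.87, edgeR adjusted p = 0.0136 and 0.0103), and by 6.36 and 6.88 without mutant 2. S100a8 rose by 10.25 without control 3 and lost its call without control 1 (edgeR adjusted p = 0.0507). Of 8 neutrophil markers, these 2 among them, 4 of 5 tested rose, beside 9.39% of all tested genes. Their summed level was 3.64, 11.3, 3.00 and 2.03 CPM in controls 1 to 4 and 40.9, 986, 23.0 and 63.8 in mutants 1 to 4. The order of the mutants in that sum, 2, 4, 1 and 3, was that of Reg3b, Reg3g and Reg1. Control 2 was the highest control in that sum through Retnlg alone, an uncalled gene at 8.96 CPM there. Without Retnlg the other 7 markers summed to 2.76, 2.37, 2.62 and 1.79 CPM in controls 1 to 4 and to 38.1, 910, 19.9 and 57.6 in mutants 1 to 4. The other called markers, named after their values were seen, were Csf3r and Cxcr2. Csf3r was at 1.56 to 2.31 CPM in controls and 7.85, 139, 4.31 and 19.8 in mutants 1 to 4. Cxcr2 was at 0 to 0.188 CPM in controls and 1.67, 43.7, 1.03 and 5.06 in mutants 1 to 4. Ly6g and Elane had no read in any control. They were at 3.88 and 4.13 CPM in mutant 2, and at no more than 0.257 and 0 in the other mutants. Mpo was at 9.40 CPM in mutant 2 and at most 0.126 in any other library. Whether neutrophils had a part in the REG differences was not tested.

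**Figure D5:**
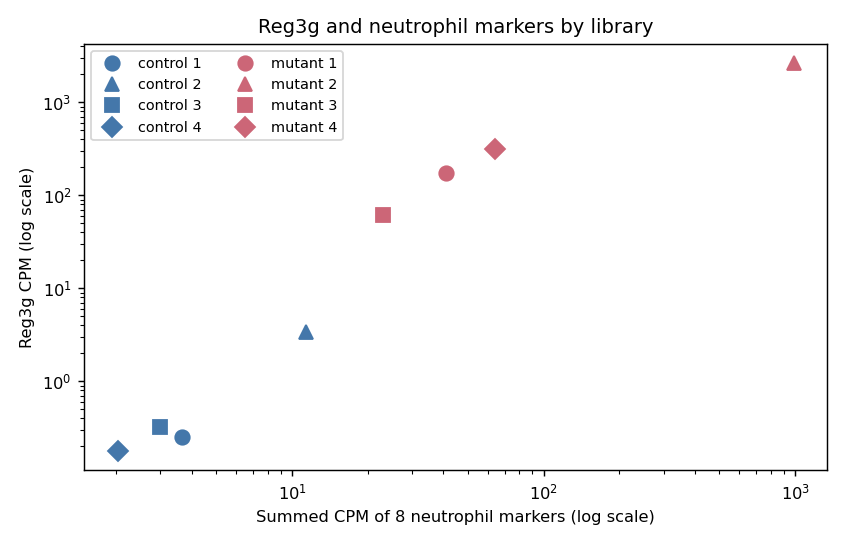
Reg3g CPM in each library against the summed CPM of 8 neutrophil markers (both axes logarithmic, 1 symbol per library). Mutant 2 is highest on both axes at 2622 and 986 CPM, and control 2 lies at 3.43 and 11.3 CPM, of which 8.96 CPM are Retnlg.

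Because Reg1 and Reg2 are also genes of exocrine pancreas, acinar markers were examined in the same libraries. Of 23 listed genes 11 could be tested, 8 fell, 2 rose and 1 was not called. Beside this count and those below, 9.39% of all tested genes were called higher and 10.8% lower. The summed level, which in controls was nearly all Clps, colipase, a gene also on the chief cell list, was 50968 to 89839 CPM in controls and 275 to 4606 in mutants. Acinar enzymes Cpa1, Prss2 and Ctrc were at or near 0 in every library, with a highest value of 0.286 CPM for Cpa1 in mutant 2, and Amy2a5 and Amy2b had no read in any mutant. Other enzymes of the list were present. Pnliprp2, Pnliprp1 and Cel had means of 376, 154 and 64.1 CPM in controls and 38.8, 5.75 and 4.13 in mutants. Cela1 rose, from 60.4 ± 12.0 to 102 ± 9.88 CPM (SD, n = 4 each). Gp2, a zymogen granule membrane protein, was the other gene that rose, to 113 CPM in mutant 2 and 1.57 to 5.09 in the other mutants. Gp2 was named after its values were seen. Of 10 intestinal enterocyte markers 5 could be tested, 1 rose, 2 fell and 2 were not called, with a summed level of 1614 to 2533 CPM in controls and 95.8 to 435 in mutants. Vil1, a microvillus protein, was the one that rose, from 36.8 ± 5.62 to 137 ± 50.4 CPM (SD, n = 4 each), and the apolipoproteins Apoa1 and Apoa4 fell. Sis and Cdx2 had no read in any library. Of 12 goblet and Paneth cell markers 8 could be tested, 3 rose, 1 fell and 4 were not called, with a summed level of 104 to 272 CPM in controls and 333 to 475 in mutants. Fcgbp, Spdef and Mmp7 rose and Tff3 fell, while Atoh1, Defa24, Defa17 and Ang4 had no read in any library. Mmp7, a metalloproteinase of Paneth cells, was at 118 CPM in mutant 2 and 1.03 to 2.04 in the other mutants. All these were named after their values were seen. Of the 9 genes of mucous neck cells and of metaplasia, all 9 rose, with a summed level of 2476 to 6318 CPM in controls and 10100 to 27172 in mutants. The sum was mostly the mucin Muc6 and the trefoil factor Tff2, and for it mutant 2 was lowest among the mutants. Of the 9 genes, 4 were highest in mutant 2 instead. They were Cftr at 271 CPM against 11.1 to 62.4 in the other mutants, Cd44 at 391 against 52.6 to 83.4, Aqp5 at 318 against 79.3 to 197, and Gkn3 at 1832 against 1460 to 1565. Whether any of these cell types had a part in the REG differences was not tested.

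The genes whose pattern over the 8 libraries was most like that of each abundant member were taken by the smallest Euclidean distance between log2 CPM values (prior count 2), each centred on its mean, among 14642 genes with a mean of at least 1 CPM. Nearest to Reg3g were Cxcl5, a neutrophil-attracting chemokine (distance 3.41), Cftr, the chloride channel (3.77), and Cldn2, a tight junction protein (3.79). Nearest to Reg3b were Cldn2 (3.51), Pigr (3.71) and Cxcl5 (3.79), each farther than Reg3g itself (3.31). Cxcl5 had no read in any control and was at 18.0, 201, 3.71 and 17.9 CPM in mutants 1 to 4. Nearest to Reg1 were Chil3, a chitinase-like protein (1.77), Wisp2, a matricellular protein (1.88), and Onecut3, a transcription factor (1.91), all closer to it than Reg3g (4.72) or Reg3b (4.95) were. Chil3 was at 0, 0.329, 0 and 0.0598 CPM in controls 1 to 4 and 4.28, 26.8, 3.88 and 14.5 in mutants 1 to 4. These genes were picked for their likeness, so their own differences between the groups carry no test here.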

How the data were processed

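RNA of the corpus was sequenced as polyA libraries from 8 mice. The deposited table holds raw counts of reads for each Ensembl gene, and a second deposited table holds the authors' FPKM. Per the submitters' processing notes the tools were STAR 2.5, CASAVA, fastp and featureCounts, with no role given. No source used here states build or strand, so overlapping genes are uncertain. All 7 members had the start and end of GENCODE M21 (GRCm38), as had 53585 of 54495 shared genes. The header SCI was taken for control 1, labelled SC1. Every 2 libraries of a group differed by more than sampling noise (chi-square per degree of freedom of 15.4 or more).

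After filterByExpr and TMM scaling, counts were tested with edgeR 4.0.16 (quasi-likelihood, robust, R 4.3.3), with p adjusted over all 15862 tested genes at a threshold of 0.05. The script was tested on simulated data first. The SE is the coefficient without prior count divided by the square root of F. Floors are 3 reads, and intervals (95%, exact) cover counting error only. DESeq2 1.42.0 was an alternative, as was limma 3.58.1 on log2 of FPKM plus 1 or plus 0.1, for genes averaging 0.5 FPKM or for all. Further alternatives were RLE factors, column totals, TMM without parietal and chief genes, other filters, a block, and libraries left out. The members, lists and tests were chosen with earlier results of these data known. Named were all members, up to 6 called genes of each list with a mean of at least 1 CPM by p, the largest change in the rarer direction, and the 3 nearest genes of each abundant member. Replicate numbers were not shown to pair the libraries (correlation of same-numbered deviations -0.0618 to 0.0688), which does not exclude a pairing. The p-values measure the spread between these animals.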

Additional observations from a re-analysis of the deposited data

Results flagged for a closer look

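In groups of 4, the values below were set apart from the other 3 by a gap of more than 0.829 of the group's range. For normally distributed values chance alone would flag about 1 group in 20, and 52 groups were looked at. That share does not apply here. CPM values need not be normally distributed, a lone read against 0 always passes, and some genes were picked for their likeness to a member. In mutant 2, Reg3g was at 2622 CPM against 60.8 to 314 in the other mutants, Lcn2 at 581 against 18.6 to 45.3, S100a9 at 408, with 8.45 in the lowest mutant, and S100a8 at 302 against 6.12 to 11.5. In the same library Cxcl5 was at 201 CPM against 3.71 to 18.0, Wisp2 at 152 against 6.94 to 13.2 and Onecut3 at 24.2 against 2.54 to 6.21. In control 2, Reg3g was at 3.43 CPM against 0.179 to 0.319 in the other controls, and Reg3b at 0.0659 CPM, which is 1 read, against 0. In control 4 Onecut3 was at 0.0598 CPM, also 1 read, against 0.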

How the results depend on the processing

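Since Reg1, Reg3b and Reg3g were chosen on this contrast, their values under other settings are a description. Apart from the FPKM fits, their log2 fold changes ran from 6.05 to 7.50, 11.83 to 14.60 and 7.48 to 11.61. Over the 17 named genes of the cytokine, gastrin and antimicrobial lists, 272 of 320 alternative values kept their call, 48 lost it and none reversed. These genes were picked among those called in the main fit, so a call could be kept or lost but not gained.

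The counts of called genes moved as well. With column totals, cytokine axis genes were 16 higher and 1 lower, and all genes 9443 higher and 722 lower, against 1489 and 1719. With no low-count filter, 5 cytokine axis genes were higher, 2 gastrin axis genes lower and 0 antimicrobial genes lower. Replicate numbers were not shown to pair the animals, and with them as a block 4 cytokine axis genes were higher and 1 lower, 0 antimicrobial genes were lower, and 747 genes were higher and 1077 lower in all. DESeq2 gave 2407 genes higher. Without both libraries with squamous transcripts, 4 cytokine axis genes were higher and 1 lower, 0 antimicrobial genes lower, and 587 genes higher and 823 lower in all. Limma on log2(FPKM + 1) gave 5 cytokine axis genes higher, and with no filter 2 higher and 1 lower, with 827 genes higher in all. Leaving out each library in turn gave 2 to 10 cytokine axis genes higher and 1 to 2 lower, 2 to 6 gastrin axis genes lower, 5 to 10 antimicrobial genes higher and 0 to 1 lower, and 665 to 2447 genes higher and 1018 to 2953 lower in all. The cause of these shifts was not tested. A lone read sets the size of the Reg3b ratio, and levels of Reg3a, Reg3d and Reg2 rest on 41, 20 and 5 reads.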
